A study of Homo sapiens with 6 samples.

Results

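The genes described here are 10 germline genes: PRAMEF6, PRAMEF9 and PRAMEF15 of the PRAME family cluster on chromosome 1, and ZSCAN4, LEUTX, TRIM43, MBD3L2, KHDC1L, DUXA and KDM4E, which lie elsewhere and are known as targets of the embryonic transcription factor DUX4. They were found by matching the Ensembl identifiers of the gene-count table to these symbols on primary chromosomes, and all 10 had a row among the 63677 rows of the table. They were chosen by their measured values in the same comparison, so their values are given as a description and no p-value is read from them. The RNA-Seq libraries came from RPMI8226, a human line derived from multiple myeloma whose genotype is labelled WT. Cells received 100 nM of either GST or GST-PTR1, each in 3 biological replicates, and were harvested after 6 hr. GST-PTR1 is glutathione-S-transferase fused to the proteoglycan tandem repeat 1 domain of the matrix protein HAPLN1, and GST alone served as the control, so both groups received a recombinant GST protein made in Escherichia coli. The data describe 1 cell line at 1 dose and 1 time.

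PRAME family (PRAMEF) genes encode leucine-rich repeat proteins related to PRAME, a tumor antigen that serves as a substrate receptor of cullin-RING ubiquitin ligases. They sit as near-identical copies in a tandem cluster, and are mostly silent outside the germline and the early embryo. DUX4 is a double homeobox factor that switches on a short-lived programme at the first divisions of the human embryo, and is silenced afterwards; ZSCAN4, LEUTX, DUXA, TRIM43, MBD3L2, KHDC1L, KDM4E and many PRAMEF genes belong to that programme. The comparison asks whether these targets outside the PRAMEF cluster were present in RPMI8226 cells and moved with it.

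The libraries held between 15202503 and 44688737 counts, so that 3 counts were worth between 0.0671 and 0.197 CPM, the count scaled to a common library total. Values by library are listed in order of rising total, which was 15202503, 20077280 and 23453473 counts in GST and 22874133, 28837431 and 44688737 counts in GST-PTR1 libraries. All 10 plasma cell and myeloma markers were detected, among them SDC1, IRF4 and JCHAIN, with a summed level, mostly from JCHAIN and MZB1, of 4380 to 5370 CPM in GST and 3830 to 4390 CPM in GST-PTR1 libraries. By edgeR 3 of the 10 fell, SDC1 by 1.03, TNFRSF17 by 1.41 and XBP1 by 0.47 on the log2 scale (adjusted p = 0.000272, 0.000374 and 0.0149). IRF4, PRDM1 and SLAMF7 rose by 0.65, 1.35 and 1.52 (adjusted p = 0.00106, 1.56e-05 and 5.81e-05). Of 13 markers of other cell types with a row, MPO and ALB had no count and 8 more had too few counts to be tested. EPCAM was the exception, at 76.0 ± 5.45 CPM in GST and 60.8 ± 3.85 CPM in GST-PTR1 cells (SD, n = 3). Without EPCAM the summed level of these markers was 6.57 to 7.1 CPM in GST and 3.42 to 4.46 CPM in GST-PTR1 libraries, mostly from CD8A, which fell by 0.70 on the log2 scale (adjusted p = 0.0132, edgeR). The part of these markers in the results below was not tested. In bulk RNA, fewer cells that express a gene and less RNA per cell cannot be told apart.

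The 3 PRAMEF genes were present at low levels in GST cells and were lower in every GST-PTR1 library. PRAMEF15 (ENSG00000204501, chr1:13421176-13428191 of GRCh37, plus strand, reads counted over its exons) had 6.12, 5.73 and 7.33 CPM in the GST libraries. In the GST-PTR1 libraries it had 0.874, 0.832 and 1.05 CPM. The lowest GST library was thus above the highest GST-PTR1 library, and the means were 6.39 ± 0.838 and 0.919 ± 0.116 CPM (SD, n = 3). These CPM values rested on 380 reads in GST and 91 reads in GST-PTR1 cells, and the log2 fold change on the TMM scale, which corrects library totals for composition, was -2.57 ± 0.21 (SE), or 5.93-fold lower.

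PRAMEF9 (ENSG00000204505, chr1:13140456-13145000 of GRCh37, plus strand) had 5.0, 4.48 and 5.37 CPM in the GST libraries and 1.18, 0.59 and 0.515 CPM in the GST-PTR1 libraries. Its groups did not overlap either, although the GST-PTR1 library with the smallest total stood above the other two. The means were 4.95 ± 0.447 and 0.762 ± 0.365 CPM, from 292 and 67 reads, with a log2 fold change of -2.58 ± 0.27 (SE). Per kilobase of exon, PRAMEF9 and PRAMEF15 were at a like level in GST cells, with 3.47 ± 0.313 and 3.43 ± 0.45 RPKM (SD, n = 3).

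PRAMEF6 (ENSG00000232423, chr1:12998181-13117751 of GRCh37, minus strand) was the lowest of the 3, at 1.12, 0.548 and 1.36 CPM in GST and 0.35, 0.0694 and 0.179 CPM in GST-PTR1 libraries. Its counts were 17, 11 and 32 against 8, 2 and 8 reads, so that single reads weigh on each value. The groups still did not overlap, and the log2 fold change was -2.19 ± 0.49 (SE). The row is spread over far more of the chromosome than the 7.02 kb of PRAMEF15, and 37.2% of its exon bases were shared with another row on its strand, where reads were not counted. The PRAMEF5 row lies wholly within its exons and had no count in any library. At a GST mean of 0.263 ± 0.109 RPKM it was the least abundant per length.

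All 3 PRAMEF genes were called lower by edgeR's quasi-likelihood test and all 3 were at least 4-fold lower, against 11.4% of the 16926 genes tested that were called lower and 0.313% that were called at least 4-fold lower. In CPM every GST-PTR1 library was below every GST library for each of them, which held for 34.4% of all genes tested. The genes were picked from this same contrast, so nothing is read from these counts. Summed over the 3 genes, the level went from 12.4 ± 1.66 CPM in GST to 1.88 ± 0.471 CPM in GST-PTR1 cells, which left 15.2% of the GST level. The plot of members by library shows these values beside the counts of the 7 members outside the cluster.

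**Figure D1:**
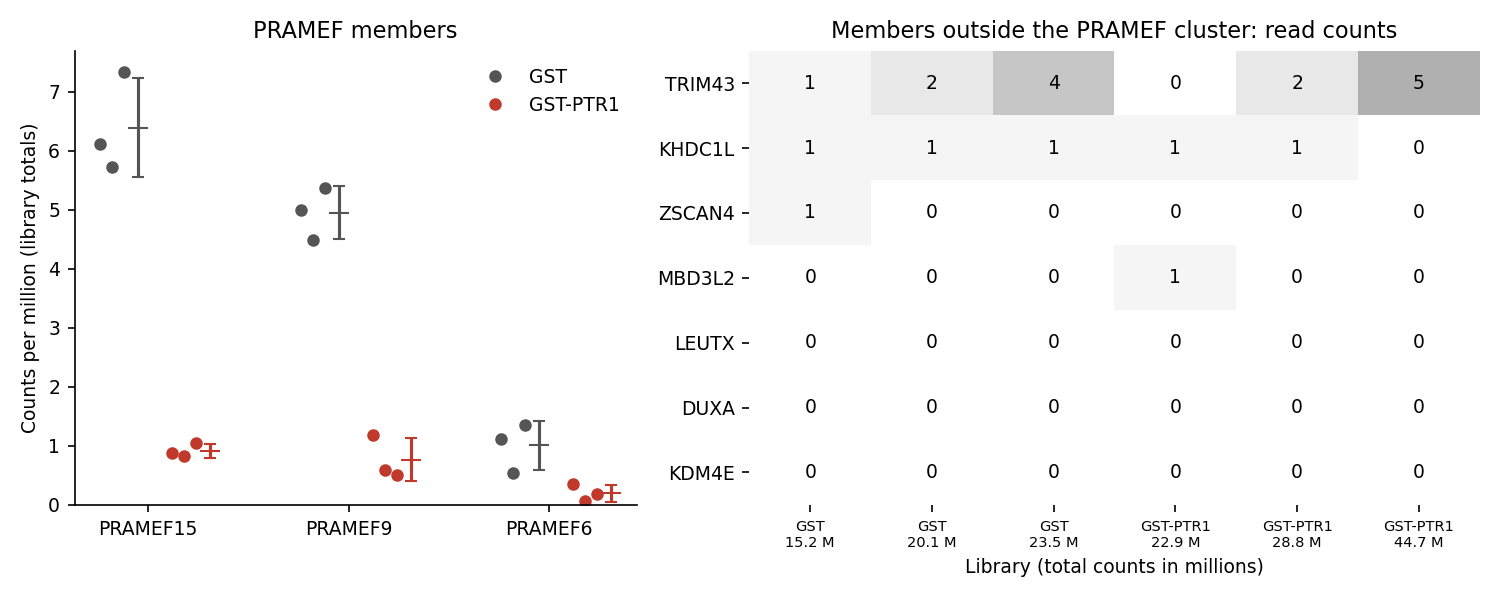
Left, CPM on library totals (y axis) of PRAMEF15, PRAMEF9 and PRAMEF6 in each GST (grey) and GST-PTR1 (red) library, 1 point a library, with the mean and SD beside them. Right, read counts of the 7 members outside the PRAMEF cluster (rows) in each library (columns, labelled with total counts); the highest entry is 5 reads, for TRIM43.

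The sequences just before the start of transcription show how alike the copies are. RefSeq promoters (GRCh38.p14, 250 bases before to 50 bases after each start) were found for 7 of the 10 genes, PRAMEF6, PRAMEF15, ZSCAN4, LEUTX, MBD3L2, KHDC1L and DUXA. The 250 bases upstream are printed for PRAMEF15 and PRAMEF6 as members, for PRAMEF7 as a more distant copy that fell, and for HNRNPCL1 as a gene of the same cluster that was not called. They are given 5′ to 3′ on the strand of the gene, with the longest run shared by the 7 tested PRAMEF genes with an entry in capitals. The coordinates are chr1:13315331-13315580 (plus strand) for PRAMEF15, chr1:12947581-12947830 (minus) for PRAMEF6, chr1:12916360-12916609 (plus) for PRAMEF7 and chr1:12848721-12848970 (minus) for HNRNPCL1.
PRAMEF15: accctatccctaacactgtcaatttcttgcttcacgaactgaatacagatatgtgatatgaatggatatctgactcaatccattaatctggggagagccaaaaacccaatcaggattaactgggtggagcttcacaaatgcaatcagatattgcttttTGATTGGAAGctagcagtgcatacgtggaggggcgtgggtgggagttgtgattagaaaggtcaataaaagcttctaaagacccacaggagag
PRAMEF6: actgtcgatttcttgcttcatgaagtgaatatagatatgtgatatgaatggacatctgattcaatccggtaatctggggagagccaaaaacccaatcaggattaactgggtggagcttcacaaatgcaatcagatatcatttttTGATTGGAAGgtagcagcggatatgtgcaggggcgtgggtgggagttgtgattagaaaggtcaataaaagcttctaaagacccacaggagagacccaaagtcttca
PRAMEF7: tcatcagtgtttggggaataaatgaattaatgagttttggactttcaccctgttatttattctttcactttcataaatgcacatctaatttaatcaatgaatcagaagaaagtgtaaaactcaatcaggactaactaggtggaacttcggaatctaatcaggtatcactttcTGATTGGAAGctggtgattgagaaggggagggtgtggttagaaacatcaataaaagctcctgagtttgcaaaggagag
HNRNPCL1: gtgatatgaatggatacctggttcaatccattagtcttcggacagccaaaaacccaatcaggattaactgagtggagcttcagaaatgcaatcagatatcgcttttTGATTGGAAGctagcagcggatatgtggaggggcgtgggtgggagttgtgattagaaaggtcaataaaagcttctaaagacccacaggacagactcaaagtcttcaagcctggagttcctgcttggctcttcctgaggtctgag

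The shared run, TGATTGGAAG, was 10 bases long and began between 78 and 115 bases before the start in the 7 genes. It was in 52 of 35116 RefSeq promoters on either strand (0.148%), which belong to 51 genes, and 16 of these genes are PRAMEF genes. Over the 300-base window, 93.7% of the bases of PRAMEF15 were matched in PRAMEF20, 89.7% in PRAMEF6, 61.3% in PRAMEF7 and 61.0% in PRAMEF1 and PRAMEF2. HNRNPCL1, which encodes a protein like the RNA-binding protein HNRNPC, matched 77.3% of the PRAMEF15 promoter and also held the run. For ZSCAN4, LEUTX, MBD3L2, KHDC1L and DUXA, at most 8 bases could be aligned and 1.7% of the window matched, and none held the run. This was not particular to genes outside the cluster. PRAMEF18 matched 1.0%, PRAMEF17 and HNRNPCL4 2.7% and a second entry of PRAMEF1 0.7%, all without the run. So few bases were aligned in these cases that the percentages do not measure likeness. The DUX4 motif, searched on both strands as its 11-base consensus, was in 84 of the 35116 promoters (0.239%), including those of PRAMEF7 and PRAMEF8 and of the DUX4 targets RFPL4A, TRIM48, TRIM49B, TRIM51, H3Y1 and SRSF8. It was in none of the 7 members' promoters, which says only that these letters are not in this window. The letters of the TATA box (TATAAA), searched anywhere in the window on both strands, were in 11.5% of all promoters. Among the members they began 31 bases before the start in DUXA, 133 and 46 in MBD3L2 and 166 in ZSCAN4. Whether they act as a TATA box was not tested.

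The likeness of the copies also limits what can be counted, because reads that mapped to several places were left out by the authors. In GENCODE version 29 transcripts (GRCh38), 92.9% of the 50-base words of PRAMEF6, 92.8% of those of PRAMEF9 and 80.8% of those of PRAMEF15 were also found in another gene. The closest partners were PRAMEF5, PRAMEF27 and PRAMEF4. The values of a single PRAMEF gene are therefore uncertain, and sums over the family are given beside them. Among genes outside the cluster, the share was 90.1% for MBD3L2, 77.3% for TRIM43, 44.6% for KHDC1L and 16.9% for KDM4E, and 0.1% or less for DUXA, LEUTX and ZSCAN4.

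The remaining PRAME family genes were examined beside the 3 members. Of 16 rows beside the members, 5 had no count, 4 had 1 to 9 counts in all and 6 were tested. All 6 fell at an adjusted p under 0.05 (edgeR, Benjamini-Hochberg over all genes tested), 5 of them at least 4-fold. Among all genes tested 11.4% were called lower and 0.313% at least 4-fold lower. A gene this low passes the filter mainly through the group in which it is higher, and these copies share sequence with the members, so the 6 are not independent of them. Their calls and adjusted p-values are given as a description, not as support for the values of the members. PRAMEF20 (ENSG00000204478, chr1:13736907-13747803), at the far end of the cluster, had 32, 26 and 33 reads in GST and 2, 5 and 4 reads in GST-PTR1 libraries. Its log2 fold change of -3.52 ± 0.38 (SE; adjusted p = 8.63e-05) was the lowest of all 16926 genes tested by edgeR. Only 4.3% of its 50-base words were found in another gene, a smaller share than for any of the 3 members.

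PRAMEF7 had 74, 52 and 74 reads in GST and 10, 13 and 22 reads in GST-PTR1 libraries, with a log2 fold change of -2.69 ± 0.29 (adjusted p = 8.34e-05). PRAMEF2 had 56, 57 and 75 against 18, 18 and 36 reads, and its log2 fold change of -1.90 ± 0.23 (adjusted p = 0.000179) was the smallest of the 6. Both kept their groups apart in CPM, as did the remaining 4 and 34.4% of all genes tested. The log2 fold changes of PRAMEF25, PRAMEF11 and PRAMEF1 were -2.36, -2.15 and -2.09, at adjusted p of 0.000362, 0.00229 and 0.00212 by edgeR. PRAMEF4 was not tested, and its 17, 3 and 18 reads in GST overlapped with 7, 5 and 6 reads in GST-PTR1 libraries once divided by the totals. PRAME itself, which lies on chromosome 22 and is expressed in many tumors, had 1 read over all 6 libraries.

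Summed over the 15 named PRAMEF genes beside the members, the level went from 13.6 ± 3.55 CPM in GST to 2.34 ± 0.21 CPM in GST-PTR1 cells, and over all 18 from 26.0 ± 4.04 to 4.22 ± 0.68 CPM (SD, n = 3), a ratio of 6.16. In each library the 18 genes summed to 29.9, 21.9 and 26.2 CPM in GST and to 4.98, 3.68 and 4.01 CPM in GST-PTR1. Within this sum the shares of the members were close between treatments. PRAMEF15 held 24.9% of it in GST and 22.1% in GST-PTR1 cells, PRAMEF9 19.2% and 17.5%, and PRAMEF6 3.82% and 4.46%, with library values that overlapped for all 3. The share of PRAMEF20 went from 5.37 to 7.03% in GST to 1.75 to 4.72% in GST-PTR1 libraries, which do not overlap. That of PRAMEF2 went the other way, from a mean of 12.5% in GST to 17.6% in GST-PTR1 cells, also without overlap. Shares were compared for 10 genes and were not tested, and those of PRAMEF20 in GST-PTR1 libraries rest on 2, 5 and 4 reads.

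The PRAMEF cluster spans 912.8 kb of chromosome 1 (chr1:12834984-13747803, GRCh37) and holds 45 rows of the table, 14 of which were tested. Of these 14, 11 were called at least 4-fold lower, 8 PRAMEF genes and 3 rows with no symbol, beside 0.313% of all genes tested. These 11 made up 20.8% of the 53 such genes in the whole table. The 8 include the 3 members, which were picked from this contrast, and low PRAMEF rows pass the filter mainly through GST. The tally is therefore a description only. The unnamed rows moved by like amounts: ENSG00000204513 had a log2 fold change of -2.46 (adjusted p = 1.65e-06) and ENSG00000204502 of -2.41 (adjusted p = 7.77e-06). Summed over all 16 unnamed rows, the level went from 38.6 ± 2.58 to 6.21 ± 0.943 CPM, more reads than all named PRAMEF genes together. The 6 PRAMEF pseudogene rows had 16 reads in GST and 2 in GST-PTR1 libraries.

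HNRNPCL1 and HNRNPCL4 lie between PRAMEF genes and were not called. HNRNPCL1 had 6.65 ± 0.188 CPM in GST and 7.39 ± 0.679 CPM in GST-PTR1 cells, with a log2 fold change of 0.35 ± 0.15 (adjusted p = 0.119, edgeR). HNRNPCL4 had 12.8 ± 2.45 and 14.6 ± 1.22 CPM, with a log2 fold change of 0.39 ± 0.14 (adjusted p = 0.0736). Their values are uncertain, since 58.7% and 94.0% of their 50-base words occur in other genes. HNRNPC on chromosome 14, which they resemble, rose by 0.58 on the log2 scale (adjusted p = 0.0053).

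Around the cluster, 68 rows without a PRAMEF name lie within 1 Mb of it or inside it, and 19 were tested. Of these 5 fell and 2 rose, beside 11.4% of all genes tested that were called lower and 9.15% called higher. Those that fell were the 3 unnamed rows, LRRC38 and KIAA2013. The unnamed rows may be PRAMEF copies, which was not tested. One of them, ENSG00000157358, has the exon length of PRAMEF15, 1863 bases. LRRC38 (chr1:13801445-13840543), an auxiliary subunit of potassium channels that lies just past PRAMEF20, had 97, 172 and 174 reads in GST and 43, 55 and 63 reads in GST-PTR1 libraries. Its log2 fold change was -1.93 ± 0.20 (adjusted p = 5.07e-05), close to that of PRAMEF2. In CPM its groups did not overlap, as for 34.4% of all genes tested. Only 8 bases of its promoter could be aligned with that of PRAMEF15, too few to measure likeness, and none of its 50-base words were found in another gene. PRDM2, a zinc finger protein with a methyltransferase-like domain and the next tested gene on that side, did not pass the test, at -0.17 ± 0.13 (adjusted p = 0.403).

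On the other side, DHRS3, a retinaldehyde reductase and the nearest tested gene, rose from 42.4 ± 1.99 to 69.7 ± 9.26 CPM, with a log2 fold change of 0.92 ± 0.13 (adjusted p = 0.000704, edgeR). VPS13D, a lipid transfer protein, did not pass the test at -0.17 ± 0.15 (adjusted p = 0.434), and TNFRSF1B, a receptor for TNF, rose by 0.38 ± 0.10 (adjusted p = 0.0218), a call kept in 7 of 14 alternatives. KIAA2013, farther out, fell by 0.48 on the log2 scale (adjusted p = 0.013). The map of fold changes along the cluster shows these rows by distance.

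**Figure D2:**
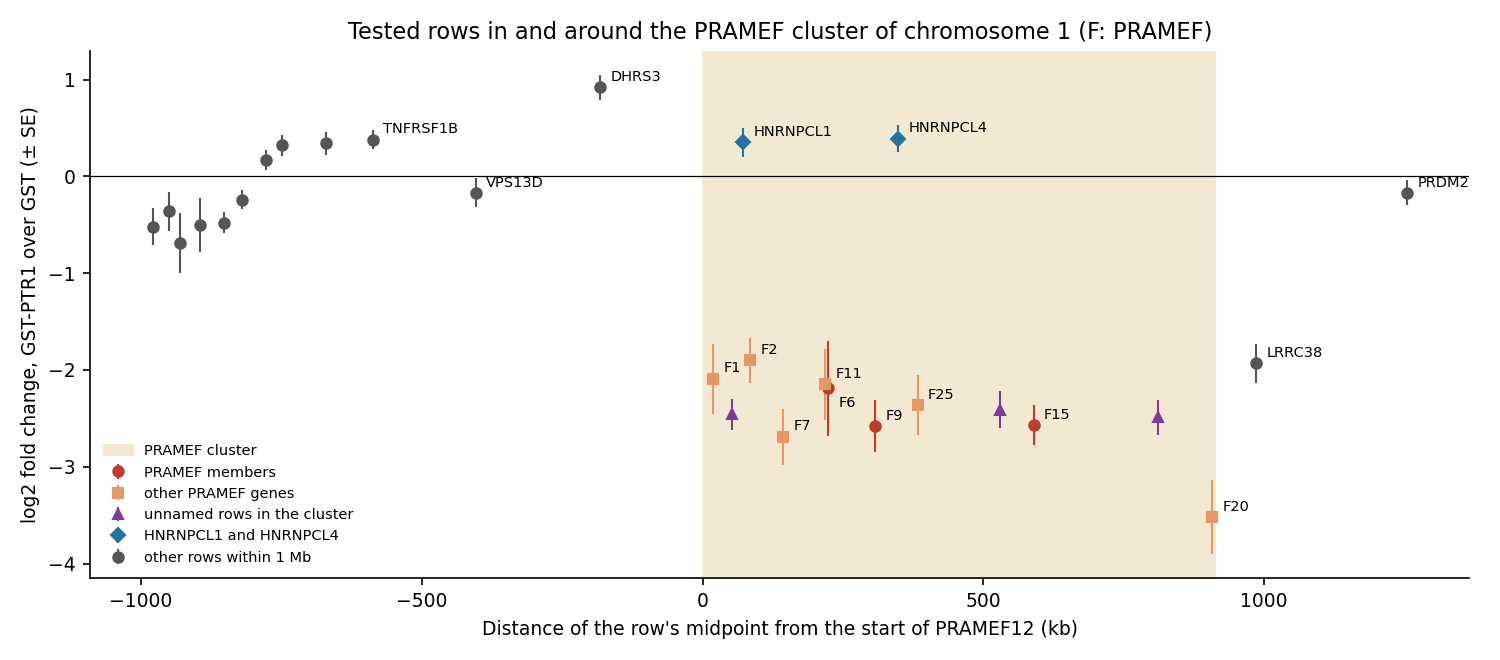
Log2 fold change of GST-PTR1 over GST with its SE (y axis) of each tested row, by the distance in kb of its midpoint from the start of PRAMEF12, the first gene of the cluster (x axis; shaded, the cluster). PRAMEF genes (F followed by the gene's number) and unnamed rows sit between -1.90 and -3.52, LRRC38 at -1.93, HNRNPCL1 and HNRNPCL4 at 0.35 and 0.39, and the remaining rows outside between -0.69 and 0.92.

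The 7 members outside the cluster had at most 3 reads, the limit of detection, in any library, except TRIM43, with 4 reads in 1 GST and 5 reads in 1 GST-PTR1 library. DUXA (ENSG00000258873, chr19:57665389-57678811) and LEUTX (ENSG00000213921, chr19:40267235-40276775), paired-like homeobox factors of the cleavage-stage embryo, had no read in any library. KDM4E (ENSG00000235268), a histone lysine demethylase, had none either. A count of 0 among the 58733256 counts of the GST group allows a level of up to 0.0511 CPM, and among the 96400301 counts of the GST-PTR1 group up to 0.0311 CPM, for counting error only. ZSCAN4 (ENSG00000180532, chr19:58180303-58190520), a zinc finger factor tied to telomere maintenance in stem cells, had 1 read in the GST library of 15202503 counts and none in the remaining 5. MBD3L2 (ENSG00000230522, chr19:7049332-7051746), a relative of the chromatin protein MBD3, had 1 read in the GST-PTR1 library of 22874133 counts and none elsewhere.

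TRIM43 (ENSG00000144015, chr2:96257766-96265526), a tripartite-motif protein of the cleavage-stage embryo, had 1, 2 and 4 reads in GST and 0, 2 and 5 reads in GST-PTR1 libraries. KHDC1L (ENSG00000256980, chr6:73933267-73935493, minus strand), a KH-domain protein, had 1 read in each GST library and 1, 1 and 0 reads in the GST-PTR1 libraries, and 47.1% of its exon bases were shared with another row on its strand. These 2 genes supplied most of the reads, and the groups overlapped for each in CPM. None of the 7 genes passed the filter on low counts, so none was tested.

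Summed over the 7 genes there were 11 reads in GST, or 0.187 CPM with an exact Poisson 95% interval of 0.0935 to 0.335, and 10 reads in GST-PTR1, or 0.104 CPM with an interval of 0.0497 to 0.191. By library the sum was 0.197, 0.149 and 0.213 CPM in GST and 0.0874, 0.104 and 0.112 CPM in GST-PTR1, so that every GST-PTR1 library was below every GST library and 54.0% of the GST level was left. Each library held only 2 to 5 of these reads and the intervals of the groups overlap, so neither a change nor its absence can be read at this depth. The 7 genes together reached at most 0.213 CPM in any library, while the 3 PRAMEF genes summed to between 10.8 and 14.1 CPM in GST libraries. The summed levels by library set these groups side by side.

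**Figure D3:**
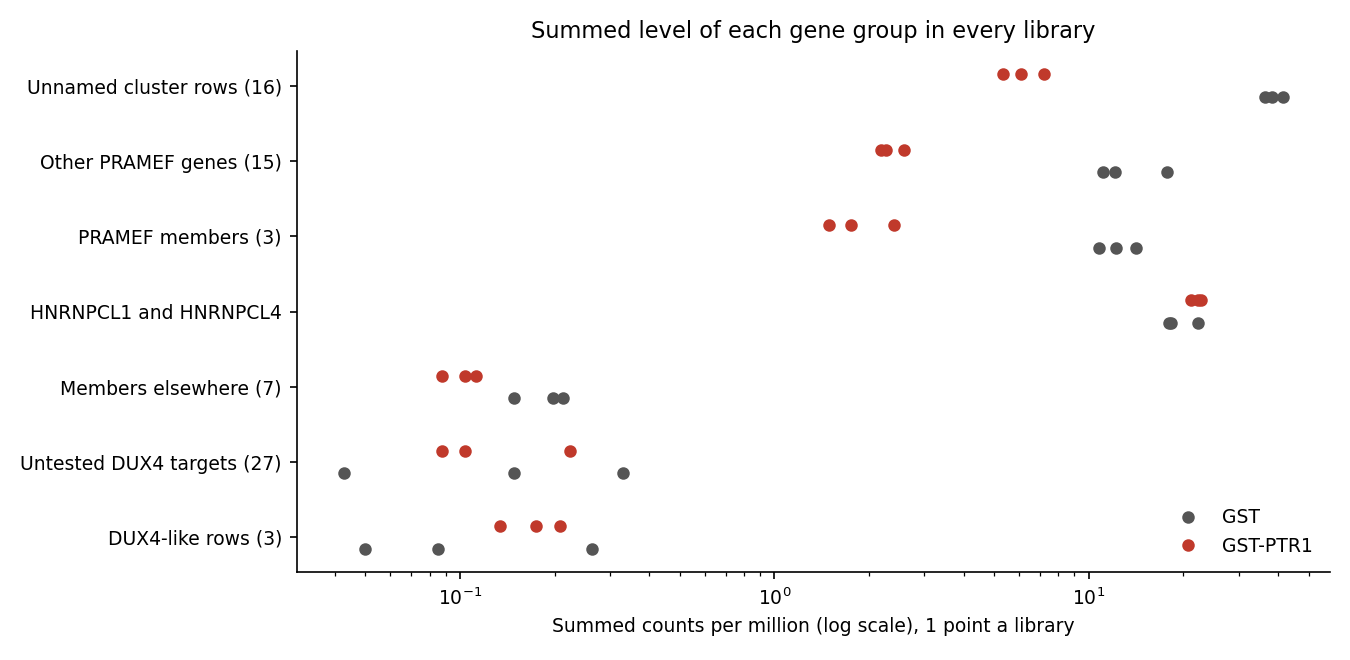
Summed CPM on a log axis (x axis) of each gene group (y axis, with the number of rows) in each GST (grey) and GST-PTR1 (red) library, 1 point a library. The PRAMEF members, the other PRAMEF genes and the unnamed cluster rows are lower in every GST-PTR1 library, as are the 7 members elsewhere on 2 to 5 reads a library, HNRNPCL1 with HNRNPCL4 overlap, and the DUX4-type groups all stay below 0.335 CPM.

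DUX4 itself was looked for as well. The DUX4 gene was matched only on a patch outside the primary chromosomes. None of the 5904 rows outside them had a count in any library, so the lack of a DUX4 count says nothing on its expression. Of the repeat copies 3 had a row on a primary chromosome, DUX4L4, DUX4L9 and DUX4L26. They had 7 reads in GST (0.119 CPM, exact Poisson 95% interval 0.0479 to 0.246) and 16 reads in GST-PTR1 (0.166 CPM, 0.0949 to 0.27), 13 of the latter from DUX4L26 on chromosome 3. The intervals overlap, and none of the rows was tested. Reads that map to several places were not counted, and how many came from these repeats was not measured.

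Most of a list of 36 further DUX4 targets were also without reads. Of 33 with a row, 22 had no count in any library, among them the homeobox genes DPRX, ARGFX and TPRX1, the factor KLF17 and the MBD3L2 relatives MBD3L3, MBD3L4 and MBD3L5. Another 4 had 1 to 9 counts, and the 27 that were not tested summed to 9 reads in GST and 15 reads in GST-PTR1 libraries. FAM151A, singled out after its values were seen, had no read in GST and 2, 1 and 4 reads in GST-PTR1 libraries. Of the 7 with at least 10 counts all but WFDC3 were tested. By edgeR 1 of the 6 fell and 0 rose, and DESeq2 and limma voom gave the same counts. Among all genes tested 11.4% were called lower and 9.15% higher, and 6 genes are too few to be set apart from these shares. At an unadjusted p under 0.05 there were 2, KHDC1 as lower and HNRNPCL1 as higher.

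The gene that fell was KHDC1 (ENSG00000135314, chr6:73951037-74020088), the neighbour of KHDC1L, with 153, 260 and 342 reads in GST and 158, 198 and 257 reads in GST-PTR1 libraries. Its level went from 12.5 ± 2.29 to 6.51 ± 0.656 CPM, and its log2 fold change was -0.76 ± 0.16 (adjusted p = 0.00792, edgeR). Every GST-PTR1 library was below every GST library, as for 34.4% of all genes tested. Without the GST library of 23453473 counts the adjusted p was 0.0504. The remaining 5 did not pass the test. HNRNPCL1 is given above, and TFIP11, a splicing factor, SIAH1, a ubiquitin ligase, and ZNF296, a zinc finger protein, had log2 fold changes of 0.10, 0.19 and 0.16, which became -0.09, -0.0033 and -0.04 with library totals. SLC2A3, a glucose transporter, had -0.26 ± 0.24 (adjusted p = 0.455). The median of the 6 was 0.13, beside 0.01 over all genes tested.

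Germline genes of other kinds were examined next. Of 84 cancer-testis, meiotic and pluripotency genes, 78 had a row, 27 of these had no count and 19 were tested, and 4 rose and 1 fell, against 9.15% of all genes that were called higher. MAGEA12, CSAG1, MAGEA2B and MAGEA1, which lie together on the X chromosome, rose by 0.65, 0.50, 0.61 and 0.34 on the log2 scale (adjusted p = 0.00282, 0.0199, 0.0457 and 0.0369, edgeR). DMC1, the meiotic recombinase, fell by 0.78 (adjusted p = 0.0486). Only MAGEA12 kept its call in every alternative run, and the median of the 19 was 0.02.

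Genes that set or remove the silencing of germline loci were also examined, since DUX4 and PRAMEF loci are among those they are known to act on. Most are repressors, such as DNA methyltransferases, histone methyltransferases and the SMCHD1 and HUSH repressors. The list also holds TET1, TET2 and TET3, which act against DNA methylation, so its counts and median mix both kinds. Of 37 tested, 2 rose and 3 fell, shares under the 9.15% called higher and 11.4% called lower among all genes tested. DNMT3B, a de novo DNA methyltransferase, had 42, 54 and 57 reads in GST and 29, 23 and 34 reads in GST-PTR1 libraries, and its log2 fold change was -1.31 ± 0.24 (adjusted p = 0.00311, edgeR). TET3, which oxidizes methylated cytosine, was at 51.2 ± 10.2 CPM in GST and 85.5 ± 14.0 CPM in GST-PTR1 cells and rose by 0.94 ± 0.14 on the log2 scale (adjusted p = 0.000997). In CPM every GST-PTR1 library was below every GST library for DNMT3B, as for 34.4% of all genes tested. TET1 fell by 1.47 (adjusted p = 0.022), EHMT2, a histone methyltransferase, fell by 0.48 (adjusted p = 0.0241) and EZH2, the Polycomb methyltransferase, rose by 0.32 (adjusted p = 0.0376). DNMT3B and TET3 kept their calls in all 14 alternatives run, and the remaining 3 did not. The median of the 37 was 0.04.

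**Figure D4:**
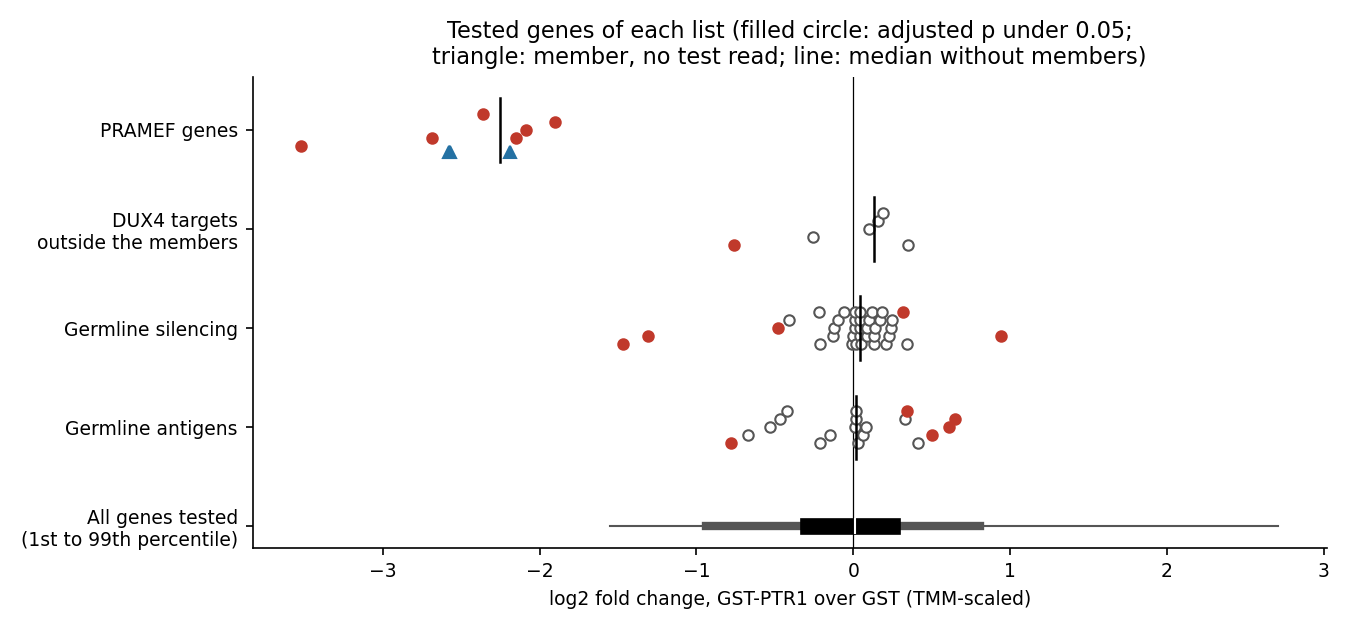
Log2 fold change of GST-PTR1 over GST (x axis) of the tested genes of each list (y axis), filled where the adjusted p was under 0.05 by edgeR, with the members as triangles and the median of the genes beside them as a line. All genes tested are drawn by percentiles, with the 1st at -1.55 and the 99th at 2.71, and the PRAMEF genes lie below the 1st percentile while the medians of the lists beside them lie between 0.02 and 0.13.

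The genes whose log2 CPM followed that of PRAMEF15 most closely over the 6 libraries were PRX, GALM, ENSG00000203644, PARD6A and TMCC1, with Pearson's r of 0.998, 0.998, 0.996, 0.996 and 0.996. None lies on chromosome 1. With 6 libraries in 2 groups, any gene that differs between the groups scores high, and 411 of 16925 genes had an r over 0.95. Among them PRAMEF2 was in place 26 (r = 0.99) and PRAMEF9 in place 389 (r = 0.952), while PRAMEF6, with the fewest reads, was in place 1574 (r = 0.874).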

How the data were processed

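RNA was isolated with TRIzol, and strand-specific mRNA libraries were made with the TruSeq kit (Illumina). The deposited table gives raw read counts by gene. The authors obtained these counts with featureCounts 1.5.0-p1, using gene models of Ensembl 75 on GRCh37. Per the file header, single reads were counted on the reverse strand, and reads mapped to several places or shared by several genes on a strand were left out. The submitters' processing notes also name FastQC, Subread and limma, and the aligner is not given in the sources used here. The table holds 63677 rows, of which 39699 were matched to a symbol.

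CPM and RPKM are counts divided by library totals and, for RPKM, by the exon lengths in the table. Log2 fold changes, with SE, come from edgeR 4.0.16 (R 4.3.3) with TMM factors, filterByExpr and the quasi-likelihood test on all 6 libraries, with p-values adjusted by Benjamini-Hochberg over the 16926 genes tested. The steps were tested on simulated data. Intervals and limits of detection (3 counts) cover counting error only, at 95% confidence. Column numbers of the table do not match the labels' replicate numbers, so libraries were mapped to a treatment only. No libraries of a treatment agreed within sampling noise (smallest chi-square per gene 8.35).

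The 10 members and all lists were chosen with earlier results of these data known. Genes are named by a rule: all members, PRAMEF genes with at least 10 counts, list genes past adjusted p 0.05 (up to 6 a direction), tested DUX4 targets, the 3 nearest tested genes on each side of the cluster, and the 5 genes most like PRAMEF15. Alternatives were DESeq2 (1.42.0) size factors, library totals, DESeq2's test, limma voom (3.58.1), a looser filter (1 count in any library) or a stricter one (10 in every library), and leaving out each library. Thinning to the smallest total and TMM-scaled CPM were run for the members. After the data were seen, the 4 libraries that share a column number were also fitted, once unblocked and once blocked by it. Promoters were aligned with Biopython 1.88.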

Additional observations from a re-analysis of the deposited data

How the results depend on the processing

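PRAMEF9 and PRAMEF15 were called lower in all 14 alternatives, with log2 fold changes of -2.95 to -2.35 and -2.78 to -2.45, and PRAMEF6 in 12 of the 13 that tested it, but not without the GST library of 23453473 counts. Of the members 2 or 3 were called on leaving out each library in turn. The members were picked from this same contrast, so these calls are a description and nothing is read from how many were kept. The 6 PRAMEF genes beside them kept their calls in every alternative that tested them, but only 2 had at least 10 counts in every library. The other DUX4 targets gave 0 to 1 lower calls on leaving out libraries (0 without the GST library of 23453473 counts). With library totals, which shift the median of all genes by -0.20, ZNF296, TFIP11 and SIAH1 turned to -0.04, -0.09 and -0.0033.

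The calls of the germline lists were not stable. With library totals the germline antigens had 4 lower and 1 higher, the silencing genes 5 lower and 1 higher, the neighbours 1 higher, and all genes 3795 lower and 927 higher. With DESeq2's size factors, DESeq2's test, limma voom or at least 1 count in any library, 0 germline antigens were lower. That last filter also gave 8 lower neighbours and 2608 higher genes in all. Leaving out libraries gave 0 to 2 lower and 1 to 2 higher germline antigens, 1 to 3 lower and 1 to 2 higher silencing genes, 5 to 7 lower and 1 to 3 higher neighbours, and 1178 to 1818 lower and 1051 to 1531 higher genes in all. HNRNPCL4 passed the test as higher in 4 of 14 alternatives, with log2 fold changes of 0.19 to 0.53. The causes of these shifts were not tested, beyond the smaller number of libraries.

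The 4 libraries that share a column number gave 2 lower and 3 higher germline antigens without a replicate block, and 2 lower and 1 higher with the replicate block, and 1 higher silencing gene in both. With the block, 3 members and 6 further PRAMEF genes were called lower, as before, which is again a description only. Nothing says that the number pairs cultures.

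Depth limits the 7 members outside the cluster, of which no library held over 5 reads each. The tested PRAMEF genes rest on 11 (PRAMEF20) to 380 reads per treatment, and near-identical copies lose reads that map to several places.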

Other observations

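The germline antigens that rose lie near each other on the X chromosome, and the rows between MAGEA6 and MAGEA1 are described here after their values were seen. MAGEA12 went from 27.2 ± 1.27 to 37.0 ± 2.13 CPM, and CSAG1, which starts right beside it on the opposite strand, from 19.0 ± 2.09 to 23.5 ± 2.32 CPM (SD, n = 3). The unnamed row ENSG00000184324 between CSAG1 and MAGEA3 had 151, 252 and 316 reads in GST and 441, 619 and 998 reads in GST-PTR1 libraries, and rose by 1.00 on the log2 scale (adjusted p = 0.000982, edgeR). MAGEA6 and MAGEA3, which are near-identical to each other, did not pass the test, with log2 fold changes of 0.01 and 0.33. CETN2, NSDHL and ZNF185, which lie among these genes and are no germline antigens, did not pass it either, at 0.16, 0.12 and -0.35.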
